A study of Mus musculus with 20 samples.

Results

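The transcripts of 7 genes that encode transcription factors of Th17 cells, Rora, Batf, Irf4, Maf, Ahr, Ikzf3 and Prdm1, were followed through 20 libraries of mouse CD4 T cells. They were chosen by symbol from the 39179 gene identifiers counted in each library, and all 7 passed the filter on low counts. Th17 cells are helper T cells that make IL-17 and arise when a naive CD4 T cell is activated in the presence of TGF-beta and IL-6. They are known for guarding the gut wall and, when they turn inflammatory, for driving colitis.

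The factors act in layers. BATF, a member of the AP-1 family, and IRF4, a member of the interferon regulatory factor family, bind DNA together early after T cell receptor stimulation and open sites that later factors use. ROR-alpha, the product of Rora, is a nuclear receptor that helps to set the Th17 programme. c-MAF, the product of Maf, is induced by IL-6 and TGF-beta and is needed for IL-10. AHR is a receptor of dietary and microbial ligands and is needed for IL-22. Aiolos, the product of Ikzf3, belongs to the Ikaros family and represses Il2. BLIMP-1, the product of Prdm1, is a transcriptional repressor found in effector, plasma and tissue-resident cells.

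The libraries came from wild-type mice and from mice without Il6ra, which encodes the IL-6-binding chain of the receptor, and they fall into 2 experimental parts that were normalised and fitted apart. In the transfer part, T cells carrying an IL-17F reporter (Thy1.1) were taken from wild-type mice with the CD45.1 allele and from Il6ra-deficient (Il6ra-/-) mice with the CD45.2 allele. They were cultured as Th17 precursors for 6 days with anti-CD3, irradiated antigen-presenting cells, TGF-beta at 2.5 ng/ml, antibodies against IFN-gamma and IL-4, and hyper-IL-6 at 20 ng/ml. Hyper-IL-6 is IL-6 fused to its soluble receptor, which also acts on cells that lack their own receptor. The before-transfer samples were Thy1.1-positive cells of these cultures, with 2 libraries for each genotype. Then 200000 cells of each genotype were placed together into Rag1-/- hosts, which lack T and B cells. After 4 weeks, CD4+ TCR-beta+ cells were sorted from pooled colons by CD45 allele (3 libraries per genotype). The colon gate did not select on the reporter, so the colon and before-transfer libraries differ in their gate as well as in their place and time. The labels put the libraries numbered 0 in experiment 1 and those numbered 1 and 2 in experiment 2.

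The culture part held naive CD4 T cells of both genotypes, wild-type cells cultured for 6 days with IL-6 at 20 ng/ml, and cells of either genotype given hyper-IL-6 at 63 ng/ml over the same time (2 libraries in each of the 5 groups). Its cultured cells were sorted as Thy1.1-positive Th17 precursors. The labels give 4 h of PMA and ionomycin for all of its libraries, the naive ones included. They give no such stimulation for the transfer part, and the parts also differ in extraction, so levels of the parts are not directly comparable. Whether the naive cells in fact received PMA and ionomycin was not tested. If they did not, the changes from naive to cultured cells would include that stimulation. The labels do not say whether libraries of a group came from separate animals or cultures, so the tests below measure only how far these libraries spread, which may be technical.

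Library totals of gene counts ran from 12718633 to 23745060 for the transfer part and from 20160774 to 46848016 for the culture part. The whole-gene count of Il6ra did not check the genotype labels, because the labels used here do not name the deleted stretch. Before transfer it was between 72.8 and 84.2 CPM (reads of a gene scaled to a common library total) in wild-type and between 80.6 and 123 in deficient libraries. The naive libraries had 270 and 421 CPM against 199 and 213. All 8 T cell markers were present in every group. Wild-type library 1 before transfer had the highest share of ribosomal protein transcripts of its part (3.20%), and wild-type colon library 2 the highest mitochondrial share (4.28%), so results are also given without these libraries. In the colon all 10 myeloid and all 8 epithelial markers reached 1 CPM, and their summed levels were between 129 and 419 CPM and between 116 and 514 CPM. Before transfer these sums were between 11.4 and 60.1 CPM and between 9.36 and 37.0 CPM. Stromal and endothelial markers summed to between 117 and 176 CPM in the colon and between 126 and 149 CPM before. Most of that sum was Pecam1, which T cells also express (111 to 150 CPM in the colon, 124 to 147 CPM before). Of the 7 markers, 7 in wild-type and 6 in deficient cells reached 1 CPM in the colon, against 3 and 2 before. Col3a1 had no read before transfer and was between 1.79 and 11.4 CPM in the colon. B and plasma cell markers summed to at most 8.23 CPM in the colon, with Pax5 at 0 in all 6 libraries. Their part in the results was not tested. In such bulk libraries a change in the share of a cell type and a change in RNA per cell cannot be told apart.

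Levels below are CPM after TMM scaling, which corrects library sizes for composition, and are listed in the order of the library numbers. Log2 fold changes are given with their standard error (SE) from edgeR's quasi-likelihood test. A gene passed when its p, adjusted by the Benjamini-Hochberg method over all genes of its part (14225 in the transfer part, 14926 in the culture part), was under 0.05.

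**Figure D1:**
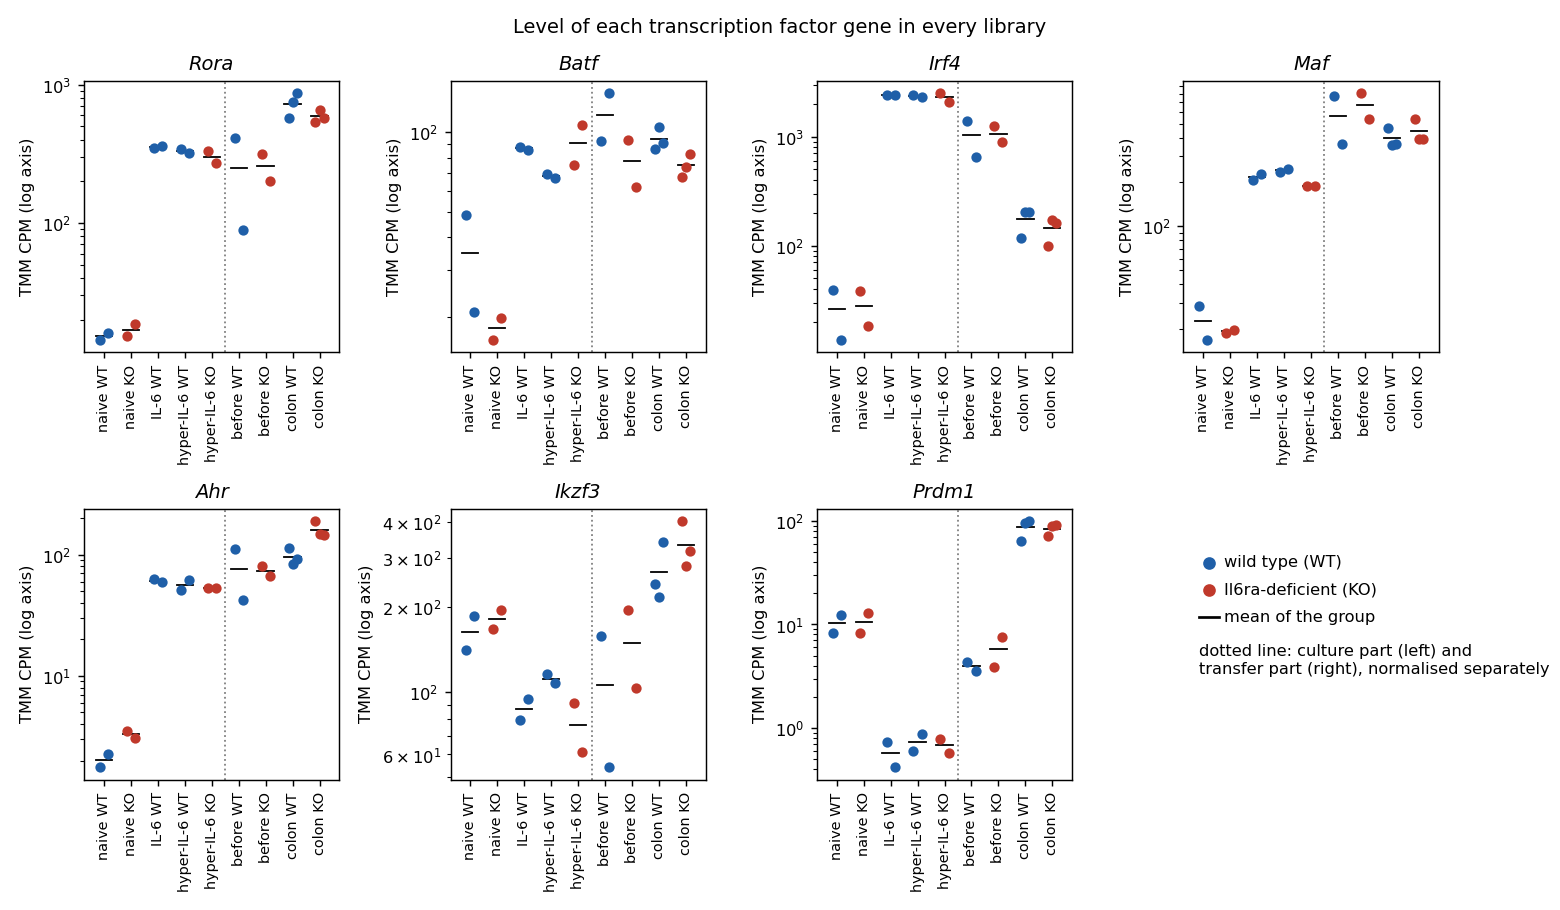
TMM-scaled CPM on a log axis of the 7 genes in each of the 20 libraries, with a bar at the mean of each group, blue for wild type and red for Il6ra-deficient. The parts were scaled apart. In all 6 cultured libraries of the culture part Irf4 was at least 2076 CPM and Prdm1 at most 0.869 CPM. In the transfer part Irf4 was between 649 and 1404 CPM before transfer and at most 205 CPM in all 6 colon libraries. Prdm1 was there between 3.57 and 7.65 CPM before transfer and between 64.7 and 99.9 CPM in the colon.

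Culture turned a naive profile in which Batf and Ikzf3 led into one dominated by Irf4. Rora, Batf, Irf4, Maf and Ahr rose and the others, Ikzf3 and Prdm1, fell, in each of the comparisons of a cultured group with the naive cells of its genotype. All 7 passed in each comparison, where 70.6%, 70.3% and 72.0% of all genes tested passed (wild type with IL-6, wild type with hyper-IL-6, and Il6ra-deficient with hyper-IL-6). With such a share, passing the test sets these genes apart little. The libraries of the compared groups did not overlap for any of the 7 genes, which held for 83.5%, 84.8% and 86.6% of all genes. The median absolute log2 change of the 7 was 4.12, 3.82 and 3.97, against 1.05, 1.04 and 1.10 over all genes tested. The wild-type comparisons share their naive libraries and are not independent of each other.

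Of the pair that opens sites for the other factors, Irf4 was at 38.9 and 13.7 CPM in naive wild-type and 38.0 and 18.3 CPM in naive deficient cells. It reached 2404 and 2387 CPM with IL-6 and 2402 and 2321 CPM with hyper-IL-6 in wild-type cells, and 2494 and 2076 CPM in deficient cells. Every cultured library was thus far above every naive one. In log2 units Irf4 rose by 6.52 ± 0.48, 6.50 ± 0.48 and 6.36 ± 0.48, with an adjusted p in edgeR of 4.37e-07, 4.46e-07 and 4.78e-07. Batf moved less. It was present in naive cells at 48.6 and 21 CPM in wild-type and 16.4 and 19.8 CPM in deficient libraries. It was at 88.0 and 85.4 CPM with IL-6, 69.5 and 67.2 CPM with hyper-IL-6, and 75.0 and 106 CPM in deficient cells. The naive wild-type libraries differed 2.32-fold from each other, yet no cultured library fell into their range. Batf rose by 1.32 ± 0.30, 0.98 ± 0.30 and 2.32 ± 0.31 log2 units (edgeR adjusted p = 0.00222, 0.0124 and 5.21e-05).

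Among the factors that act on the opened sites, Rora went from 14.4 and 16.1 CPM in naive wild-type cells to 348 and 359 CPM with IL-6 and 343 and 319 CPM with hyper-IL-6. In deficient cells it went from 15.2 and 18.7 CPM to 329 and 272 CPM. The change was between 4.14 ± 0.14 and 4.53 ± 0.14 on the log2 scale, with SEs small beside it. Maf was at 28.4 and 16.8 CPM in naive wild-type and 18.6 and 19.6 CPM in naive deficient cells. It was at 206 and 226 CPM with IL-6, 236 and 246 CPM with hyper-IL-6, and 188 CPM in each deficient library. Its log2 fold changes lay between 3.26 ± 0.19 and 3.42 ± 0.19. Ahr had the lowest start among the genes that rose. It was at 1.76 and 2.29 CPM (36 and 54 reads) in naive wild-type and 3.51 and 3.09 CPM in naive deficient libraries. In culture it was at 62.6 and 59.8 CPM with IL-6, 51.4 and 61.3 CPM with hyper-IL-6 and 53.6 and 53.1 CPM in deficient cells. This was a rise of 4.91 ± 0.16, 4.79 ± 0.16 and 4.02 ± 0.15 (edgeR adjusted p = 1.37e-09, 1.54e-09 and 2.81e-09).

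The repressors went the other way. Ikzf3 was at 141 and 187 CPM in naive wild-type and 168 and 195 CPM in naive deficient cells. It was at 79.4 and 94.3 CPM with IL-6, 115 and 107 CPM with hyper-IL-6, and 91.6 and 61.3 CPM in deficient cells, so that every cultured library lay below every naive one. Ikzf3 fell by 0.92 ± 0.19, 0.56 ± 0.19 and 1.25 ± 0.19 log2 units (edgeR adjusted p = 0.00126, 0.0211 and 0.000138). The value for wild-type cells with hyper-IL-6 no longer passed when either wild-type hyper-IL-6 library or naive wild-type library 2 was left out (adjusted p = 0.0625, 0.112 and 0.166). Prdm1 was at 8.26 and 12.4 CPM in naive wild-type and 8.32 and 13 CPM in naive deficient cells. After culture it was at 0.736 and 0.415 CPM with IL-6, 0.595 and 0.869 CPM with hyper-IL-6, and 0.783 and 0.572 CPM in deficient cells, which is 14 to 35 reads per library. Prdm1 fell by 4.12 ± 0.39, 3.82 ± 0.38 and 3.97 ± 0.38 log2 units (edgeR adjusted p = 2.98e-06, 4.63e-06 and 3.66e-06), or 17.4-fold, 14.1-fold and 15.7-fold. Beside these changes, myeloid markers summed to 17.4 to 22.4 CPM in naive and 6.71 to 29.1 CPM in cultured libraries, and epithelial markers to 2.64 to 4.24 and 13.1 to 23.8 CPM. The cultured epithelial sum was mostly Epcam (12.5 to 23.1 CPM), as 1 of the 8 markers reached 1 CPM in each cultured group. The stromal and endothelial sum went from between 245 and 311 CPM to between 4.25 and 6.31 CPM, nearly all of it Pecam1, which T cells also express. Their part in the results was not tested.

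**Figure D2:**
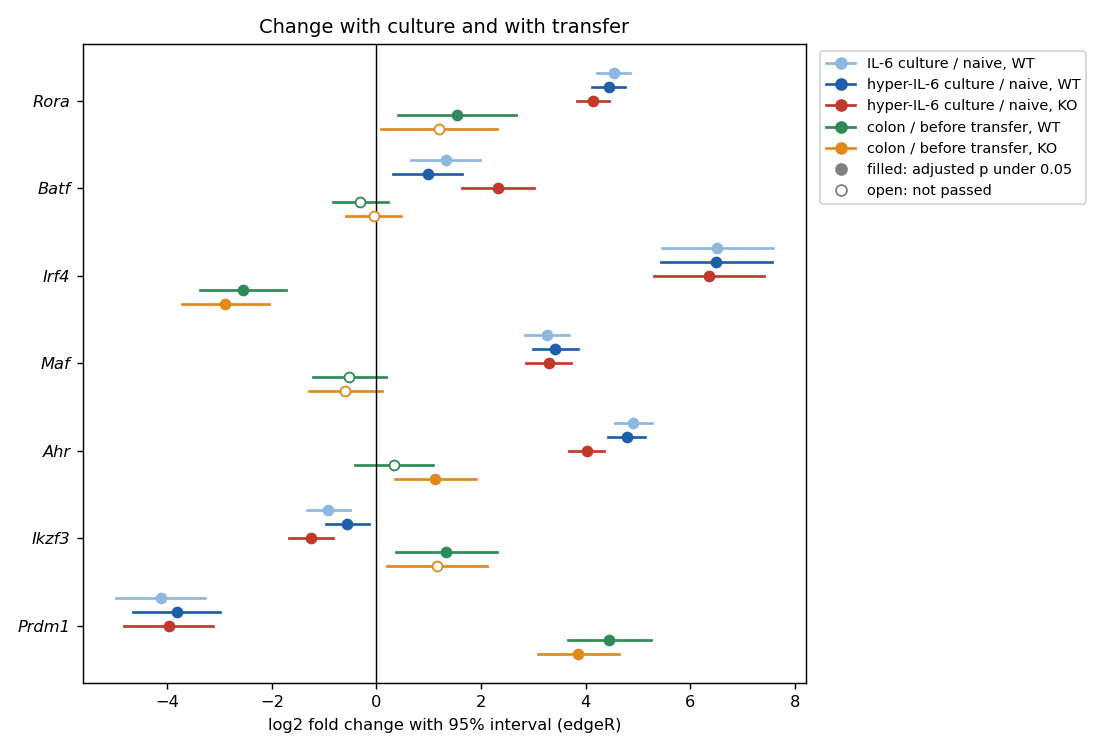
Log2 fold change of each gene with its 95% interval (edgeR), for the 3 comparisons of cultured with naive cells and the comparisons of colon with before-transfer cells in each genotype; filled points passed. Irf4 lies between 6.36 and 6.52 for culture and at -2.55 and -2.89 for transfer, and Prdm1 between -4.12 and -3.82 for culture and at 4.45 and 3.86 for transfer.

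Levels of different genes can be compared only per length of transcript. The length used here was that of all annotated exons of a gene merged, such as 1406 bases for Batf and 13071 for Rora. It can exceed the length of the transcripts present, so the order of genes can depend on this choice. Expressed as CPM per kilobase of annotated exon, Irf4 stood at 489 with IL-6, 482 with hyper-IL-6 and 466 in deficient cells, against 61.7, 48.6 and 64.4 for Batf, the next in order. In naive cells the order was led by Batf (24.7 ± 13.9, SD, n = 2) and Ikzf3 (18.7 ± 3.69) in wild type and by Ikzf3 (20.7 ± 2.22) and Batf (12.9 ± 1.69) in deficient cells. The naive wild-type pair of genes lies within the spread of its libraries. Before transfer Irf4 still led, at 209 ± 109 in wild-type and 217 ± 50.0 in deficient cells. In the colon no gene stood out. Batf was at 66.8 ± 6.88, Rora at 55.7 ± 11.3 and Maf at 48.2 ± 7.21 CPM per kilobase in wild-type cells (n = 3). Deficient cells had Maf at 53.9 ± 10.3, Batf at 53.2 ± 5.41 and Rora at 45.1 ± 4.80. Irf4 had moved to 35.8 ± 10.2 and 29.3 ± 7.83, the fourth and the fifth place. Prdm1 held the last place in the cultures (0.103 to 0.131), before transfer (0.711 and 1.03) and in the deficient colon cells (15 ± 1.94). In wild-type colon cells Prdm1 (15.6 ± 3.47) and Ahr (15.7 ± 2.43) did not differ beyond their spread.

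Partners and targets of the factors were read from lists of 73 genes. These lists were chosen with earlier results of these data known. Of 9 AP-1 genes that can pair with BATF, 3 rose and 5 fell in each comparison of cultured with naive cells (median log2 change -2.48, -2.40 and -2.29, against 0.05, 0.04 and 0.04 over all genes tested). Fosl1, a late AP-1 subunit, rose from 0.192 ± 0.212 to 42.9 ± 8.46 CPM with IL-6, whereas the immediate-early genes Fos and Fosb fell from 676 ± 252 to 4.80 ± 2.44 CPM and from 139 ± 106 to 5.87 ± 0.503 CPM. Among 8 other IRF genes 2 rose and 6 fell (median -1.52, -1.55 and -1.70). Irf8, which can also bind with BATF, rose from 11.2 ± 1.0 to 160 ± 18 CPM with IL-6, and the interferon-response gene Irf7 fell from 110 ± 6.00 to 0.675 ± 0.116 CPM. Thus Irf4 and Irf8 rose where most of their family fell.

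Of the 4 other Ikaros genes 1 rose and 3 fell (median -0.93, -0.88 and -0.97). Ikzf1, which encodes Ikaros, fell from 1010 ± 68.4 to 354 ± 10.4 CPM and Ikzf2, which encodes Helios, from 19.5 ± 4.64 to 1.5 ± 0.359 CPM with IL-6, while Ikzf4, which encodes Eos, rose from 19.8 ± 2.27 to 40.2 ± 4.52 CPM. Of 7 AHR partners and targets 3 rose and 2 fell. Those that rose in wild-type cells were the classical AHR targets Cyp1a1, Cyp1b1 and Ahrr, the last of which encodes the AHR repressor. Ahrr went from 0.0244 ± 0.0346 CPM to 7.73 ± 0.196 CPM with IL-6, and Cyp1b1 had no read in naive wild-type libraries and 16.6 ± 5.90 CPM with IL-6. The list's median was -0.03 with IL-6, 1.28 with hyper-IL-6 and 0.73 in deficient cells. The first turned to 0.05 when libraries were scaled by size only. Of 8 competitors and cofactors of ROR proteins 2 rose, and 4, 4 and 5 fell (median -0.28, -0.27 and -0.72). The risers in wild-type cells were Nr1d1, which encodes the REV-ERB-alpha repressor that competes for ROR sites, from 5.31 ± 2.26 to 48.0 ± 1.77 CPM, and Nfil3, from 2.07 ± 0.947 to 25.1 ± 3.89 CPM. All 12 Th17 effector genes rose in each comparison (median 7.78, 7.88 and 8.32). Il17a had no read in naive wild-type libraries and 2136 CPM on average with IL-6. Of 9 other Th17-promoting regulators, 5, 4 and 4 rose and 4, 4 and 3 fell. Bhlhe40 went from 5.25 ± 1.49 to 763 ± 20.5 CPM and Hif1a from 126 ± 10.1 to 1055 ± 89.4 CPM with IL-6. Of 16 regulators of other T cell fates, 5 rose in each comparison and 9, 9 and 8 fell, with Klf2, a factor of resting cells, going from 958 ± 169 to 0.724 ± 0.0174 CPM.

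Between culture and colon Irf4 and Prdm1 changed in the directions opposite to those seen between naive and cultured cells. Of the 7 genes, 4 passed between wild-type colon cells and wild-type cells before transfer, where 32.9% of all genes tested passed. Rora, Ikzf3 and Prdm1 rose and Irf4 fell. Between deficient colon and deficient before-transfer cells 3 passed, Prdm1 and Ahr upwards and Irf4 downwards, where 27.0% of all genes passed. The median absolute log2 change was 1.33 and 1.16 over the 7 genes and 0.69 and 0.56 over all genes tested. Libraries of the compared groups did not overlap for 4 and 5 of the 7 genes, a share of 55.0% and 59.1% over all genes.

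Irf4 was at 1404 and 649 CPM before transfer in wild-type and 1239 and 893 CPM in deficient libraries. In the colon it was at 118, 205 and 204 CPM in wild-type and 99.9, 171 and 161 CPM in deficient libraries. All colon libraries lay below all libraries before transfer. Irf4 fell 5.85-fold in wild-type cells (log2 fold change -2.55 ± 0.37, edgeR adjusted p = 0.000689) and 7.41-fold in deficient cells (-2.89 ± 0.38, adjusted p = 0.000341). The log2 change was -3.58 and -3.63 (wild type and deficient) within experiment 1 and -1.67 and -2.43 within experiment 2. Experiment 1 had both the highest levels before transfer and the lowest in the colon.

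Prdm1 was at 4.37 and 3.57 CPM before transfer in wild-type cells and at 3.88 and 7.65 CPM in deficient cells. Colon libraries had 64.7, 96.3 and 99.9 CPM in wild-type and 71.3, 89.4 and 90.6 CPM in deficient cells, so the lowest colon library was far above the highest before transfer. Prdm1 rose 21.9-fold in wild-type (4.45 ± 0.36, edgeR adjusted p = 1.74e-05) and 14.5-fold in deficient cells (3.86 ± 0.35, adjusted p = 3.25e-05). Its rise was present in both experiments, at 3.89 and 4.78 on the log2 scale for the wild type and 4.20 and 3.56 for deficient cells. Myeloid and epithelial markers and the stromal marker Col3a1 rose alongside, as given above. Prdm1 is also expressed in plasma cells, whose markers Jchain and Mzb1 were at most 0.211 and 0.0703 CPM in the colon. Sdc1, of the same list, was between 2.40 and 6.26 CPM in the colon and between 2.17 and 3.93 CPM before transfer. The part of such cells in the rise was not tested.

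**Figure D3:**
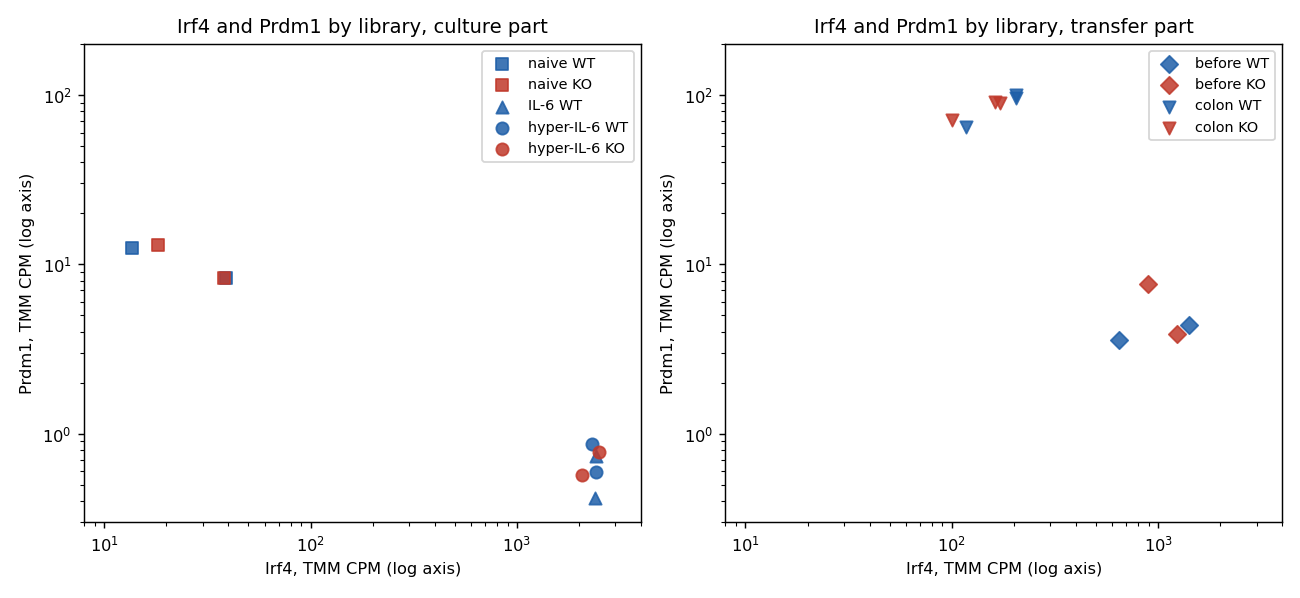
Irf4 against Prdm1 in each library, both as TMM-scaled CPM on log axes, for the culture part (left) and the transfer part (right). The parts were scaled apart. In the culture part, cultured libraries sit at the lower right, with Irf4 at least 2076 CPM and Prdm1 at most 0.869 CPM. In the transfer part, colon libraries sit at the upper left, with Irf4 at most 205 CPM and Prdm1 at least 64.7 CPM. Libraries before transfer had Irf4 between 649 and 1404 CPM and Prdm1 between 3.57 and 7.65 CPM.

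Irf4 and Prdm1 moved in opposite directions both from naive to cultured cells and from culture to colon, and their promoters are shown for that reason. The windows are the 250 bases before the RefSeq start site (GRCm38.p6), written 5′ to 3′ on the gene's strand. Irf4 lies at chr13:30748983-30749232 on the plus strand, and its capitals mark GAAAG, the core of the BLIMP-1 site, or its reverse complement. Prdm1 lies at chr10:44458749-44458998 on the minus strand, inside the longer annotated span of the gene. Its capitals mark TGAATCA, a match to TGANTCA, the AP-1 pattern searched here, in which N is any base.
Irf4: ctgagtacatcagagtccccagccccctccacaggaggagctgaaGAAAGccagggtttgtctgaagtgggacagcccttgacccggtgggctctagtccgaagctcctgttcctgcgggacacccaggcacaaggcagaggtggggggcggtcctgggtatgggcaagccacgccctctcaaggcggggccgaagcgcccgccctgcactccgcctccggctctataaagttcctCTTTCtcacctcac
Prdm1: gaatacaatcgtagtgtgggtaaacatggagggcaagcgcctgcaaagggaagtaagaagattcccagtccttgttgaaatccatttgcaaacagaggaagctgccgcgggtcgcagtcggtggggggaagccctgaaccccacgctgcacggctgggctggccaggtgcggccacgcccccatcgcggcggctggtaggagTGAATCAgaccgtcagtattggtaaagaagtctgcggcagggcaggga
GAAAG occurs in the Irf4 window from -205 to -201 and, on the other strand, from -14 to -10 relative to the start site. The same letters are found on either strand in 51.5% of 32851 promoters of this length. The AP-1 match in the Prdm1 window runs from -48 to -42, and 6.75% of promoters hold such a match. On the strand opposite to the printed one, the windows also hold GCGTG, the core of the AHR response element (28.2% of promoters). It runs from -80 to -76 in Irf4 and from -109 to -105 and -77 to -73 in Prdm1. The Ikaros core TGGGAA (21.6% of promoters) lies in Prdm1 from -189 to -184, also on the opposite strand. Searches for the interferon response motif, AGGTCA, TTCNNNGAA and TGCTGA on both strands, and for TGANTCA within 12 bases of GAAA, found no match in these windows. These matches are letters in a window, not bound sites. Of the 7 genes 4 had a promoter in the RefSeq table, the others being Rora and Batf. The Batf window also holds GAAAG, from -212 to -208, -163 to -159 and -111 to -107, and TGGGAA from -140 to -135. The Rora window holds GCGTG from -167 to -163 and no other motif searched. All of these lie on the strand opposite to the gene's.

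Rora went up again after transfer, from 413 and 89.5 CPM to 572, 747 and 864 CPM in wild-type cells and from 313 and 201 CPM to 537, 659 and 572 CPM in deficient cells. Every colon library was above every library before transfer. The log2 fold change was 1.54 ± 0.51 in wild-type (edgeR adjusted p = 0.04) and 1.20 ± 0.50 in deficient cells (adjusted p = 0.104). The adjusted p was 0.047 and 0.119 with the library number as a block, 0.0293 and 0.0769 with an experiment term, and 0.00318 and 0.0233 with the block within each stage. Of these fits the deficient change passed in the last only. It also passed with DESeq2 (adjusted p = 0.0439) and in edgeR with no filter (adjusted p = 0.0237), but not with library size only (adjusted p = 0.143). Wild-type library 1 before transfer set much of the wild-type size, as the change was 0.47 within experiment 1 and 3.17 within experiment 2. Leaving out both that library and colon library 2 of the wild type, it was 0.63 (adjusted p = 0.173) in wild-type and 1.15 (adjusted p = 0.00748) in deficient cells.

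Ikzf3, which had fallen in culture, was at 157 and 54.0 CPM before transfer in wild-type and 195 and 104 CPM in deficient cells. In the colon it was at 241, 217 and 341 CPM in wild-type and 404, 281 and 315 CPM in deficient cells, again without overlap between stages. It rose by 1.33 ± 0.44 in wild-type cells (edgeR adjusted p = 0.0384) and had a log2 change of 1.16 ± 0.43 in deficient cells (adjusted p = 0.0708). The latter passed with the library number as a block (adjusted p = 0.03, or 0.00571 with the block within each stage) and with an experiment term (adjusted p = 0.0233). It also passed with DESeq2 (adjusted p = 0.0261) and in edgeR with no filter (adjusted p = 0.0158), but not with library size only (adjusted p = 0.106). With library size only, neither the wild-type change of Rora (adjusted p = 0.0533) nor that of Ikzf3 (adjusted p = 0.0553) passed. Without these 2 doubted wild-type libraries (1 before transfer, 2 in the colon) the wild-type change was 0.50 (adjusted p = 0.37) and the deficient change 1.11 (adjusted p = 0.0199). In wild-type cells the calls of Rora and Ikzf3 each also depended on other libraries. The adjusted p of Rora was 0.0914 without wild-type library 1 before transfer, 0.0805 without colon library 1 and 0.114 without colon library 2. That of Ikzf3 was 0.195, 0.0533 and 0.126 without the same libraries, and 0.0551 without colon library 0.

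Ahr was at 111 and 42.3 CPM before transfer and 113, 84.6 and 91.7 CPM in the colon in wild-type cells, ranges that overlap (0.34 ± 0.34, edgeR adjusted p = 0.465). In deficient cells it was at 80.4 and 66.8 CPM before and 189, 148 and 145 CPM in the colon, a rise of 1.13 ± 0.35 (adjusted p = 0.0345) seen in experiment 1 (1.24) and experiment 2 (1.13). Leaving out any 1 deficient library ended that call, with adjusted p between 0.0611 and 0.171, and scaling by library size only ended it too (0.98, adjusted p = 0.0614). The block, the block within each stage and the experiment term kept it (adjusted p = 0.0155, 0.00991 and 0.00637). In wild-type cells the value depended on the before-transfer library kept. Without library 0 it was 1.20 (adjusted p = 0.00518) and without library 1 it was -0.21 (adjusted p = 0.545).

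Maf and Batf had no change that passed in the fits on group alone with all libraries. Maf was at 772 and 366 CPM before transfer and 466, 360 and 366 CPM in the colon in wild-type cells (-0.52 ± 0.32, edgeR adjusted p = 0.224). In deficient cells it was at 807 and 536 CPM and then 542, 396 and 394 CPM (-0.60 ± 0.32, adjusted p = 0.196). Without wild-type library 1 before transfer the wild-type change passed (-0.97, adjusted p = 0.0295). The deficient change did not pass with the block (adjusted p = 0.146) or an experiment term (adjusted p = 0.104). With the block within each stage it passed (-0.59, adjusted p = 0.0399), as the sixth of the 7 genes in that fit, where 34.0% of all genes passed. Batf was at 92.4 and 140 CPM before and 86.0, 105 and 90.9 CPM after transfer in wild-type cells, and at 93.5 and 62.0 CPM before and 67.7, 74.0 and 82.8 CPM after in deficient cells. Its log2 changes were -0.31 ± 0.24 and -0.06 ± 0.24, with 95% intervals from -0.83 to 0.22 and from -0.58 to 0.47. The partner of Irf4 thus had no measured fall of the size seen for Irf4 itself.

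**Figure D4:**
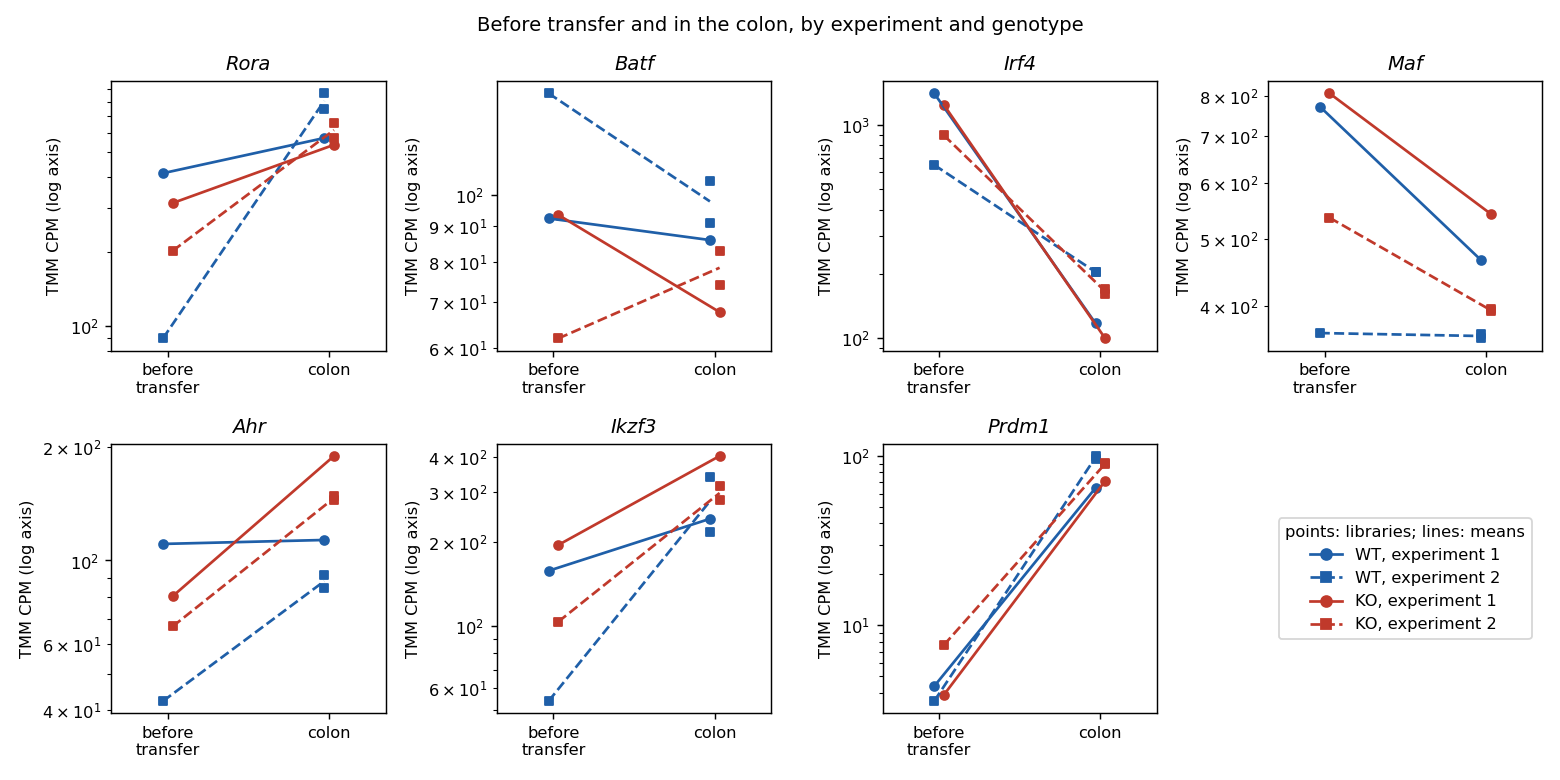
TMM-scaled CPM (log axis) before transfer and in the colon, with points for libraries and lines joining the means of experiment 1 (solid, circles) and experiment 2 (dashed, squares) in wild-type (blue) and Il6ra-deficient (red) cells. Irf4 falls and Prdm1 rises on all 4 lines, and the 4 lines of Batf do not share a direction.

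Partner and target genes also moved after transfer. Of the 9 AP-1 genes 4 rose and 3 fell in wild-type and 5 rose and 2 fell in deficient cells (median log2 change 0.88 and 1.29, against -0.020 and -0.0022 over all genes tested). Fos was at 43.2 ± 11.9 CPM before and 678 ± 137 CPM in the colon in wild-type cells and Fosb at 10.9 ± 0.264 and 831 ± 340 CPM, reversing their direction in culture. Batf3, a relative of Batf, fell from 16.4 ± 11.0 to 0.672 ± 0.451 CPM. In the IRF family 3 rose and 1 fell in each genotype (median 0.03 and 0.29, the former -0.12 when scaled by library size only). Irf1 rose from 85.5 ± 9.78 to 325 ± 22.6 CPM and Irf7 from 10.6 ± 3.99 to 60.3 ± 6.48 CPM in wild-type cells. Irf8 fell from 81.5 ± 53.4 to 14.9 ± 0.294 CPM, alongside Irf4. Of the other Ikaros genes 3 rose and 1 fell in each genotype (median 0.95 and 0.65; 1 rose and 1 fell in deficient cells when scaled by library size only). Ikzf2 went from 3.58 ± 0.536 to 91.8 ± 47.8 CPM in deficient and from 3.01 ± 2.72 to 30.5 ± 4.85 CPM in wild-type cells, and Ikzf4 fell in both.

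Of the AHR list 0 genes rose and 1 fell in each genotype (median 0.02 and -0.33; the former -0.12 when scaled by library size only), so no listed target passed upwards beside Ahr in deficient cells. Of the ROR competitors and cofactors 3 rose in wild-type cells, Ncor1, Nr1d2 and Ncoa2, and 0 in deficient cells (median 0.55 and -0.09). Without these 2 doubted wild-type libraries (1 before transfer, 2 in the colon) the former count was 1. Of the other Th17-promoting regulators 2 rose and 2 fell in wild-type and 2 rose and 1 fell in deficient cells (median -0.02 and 0.13). The NF-kappa-B cofactor gene Nfkbiz rose from 93.4 ± 21.4 to 266 ± 73.8 CPM and Crem fell from 102 ± 21.8 to 27.3 ± 5.70 CPM in wild-type cells. Of the regulators of other fates 6 rose and 5 fell in wild-type and 7 rose and 4 fell in deficient cells (median 0.37 and 0.67). Eomes and Tbx21, the T-box factor genes of type 1 responses, rose and Bach2, a repressor of effector genes, fell from 259 ± 125 to 16 ± 0.638 CPM in wild-type cells. Of the 11 Th17 effector genes tested, 5 rose and 4 fell in wild-type and 2 rose and 4 fell in deficient cells (median 1.14 and -1.13). The interaction of genotype and stage, the test of that difference, passed for none of these lists' genes and for none of the 7 factors. At an unadjusted p under 0.05 it gave 377 of all genes and 4 of the effector genes, and DESeq2 called 13 of all genes. Compared directly between genotypes in the colon, 0 of the 11 effector genes passed in edgeR. Their median log2 difference, deficient over wild type, was -1.96, against 3.92e-05 over all genes tested. At an unadjusted p under 0.05 there were 10 of the 11, and 648 of all genes.

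None of the 7 genes passed in edgeR with all libraries between Il6ra-deficient and wild-type cells, in naive cells, in culture, before transfer or in the colon. Over all genes tested 0.0067%, 0.0%, 0.00703% and 0.155% passed in these comparisons, so few calls of any gene were made. These counts depended on single libraries. Leaving out wild-type library 0 before transfer gave 1152 genes there in place of 1, Rora among them (1.55, edgeR adjusted p = 0.0289), and leaving out naive wild-type library 2 gave 902 between naive genotypes, with Batf (-1.42, adjusted p = 0.00733) and Maf (-0.57, adjusted p = 0.0178) among them. In the colon, leaving out 1 library gave 0 to 8 genes in place of 22. At an unadjusted p under 0.05, 1 of the 7 passed in the colon, Ahr, together with 648 of all genes, 0 before transfer (345 of all genes), 2 in naive cells (1554) and 1 in culture (351). In culture, where edgeR called 0 genes, DESeq2 called 3.

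Ahr in the colon had the largest genotype difference of the 7 there. Its 3 deficient libraries, at 189, 148 and 145 CPM, all lay above the 3 wild-type libraries at 113, 84.6 and 91.7 CPM. The log2 difference, deficient over wild type, was 0.74 ± 0.30, a 1.67-fold excess with a 95% interval from 0.07 to 1.40 on the log2 scale (edgeR adjusted p = 0.974). It was 0.74 within experiment 1 and 0.73 within experiment 2, and the ratios of same-numbered libraries were 1.67, 1.75 and 1.58. With the library number as a block within each stage the unadjusted p was 0.00853 and the adjusted p 0.297, and with the block across stages the adjusted p was 0.577. Batf was the other gene whose colon groups did not overlap (-0.33 ± 0.21, interval -0.80 to 0.15), and such a lack of overlap was seen for 15.8% of all genes. The interaction of genotype and stage was 0.79 ± 0.48 for Ahr (edgeR adjusted p = 0.953). Ahr was also higher in both naive deficient libraries (log2 difference 0.69 ± 0.19, edgeR adjusted p = 0.335), at 68 and 79 reads against 36 and 54, but not in culture (-0.08 ± 0.12) or before transfer (-0.06 ± 0.37).

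For the other genes the colon intervals come from the fit on group alone, which does not match libraries by number or experiment. The log2 difference between deficient and wild-type cells was -0.06 ± 0.26 for Prdm1 (interval -0.62 to 0.51), -0.29 ± 0.33 for Irf4 (-1.03 to 0.45) and 0.16 ± 0.29 for Maf (-0.47 to 0.79). It was -0.30 ± 0.43 for Rora (-1.26 to 0.65) and 0.32 ± 0.37 for Ikzf3 (-0.50 to 1.15). The ratios of same-numbered libraries were 0.849, 0.832 and 0.790 for Irf4, 0.939, 0.881 and 0.662 for Rora, and 1.16, 1.10 and 1.08 for Maf. For Ikzf3 they were 1.68, 1.30 and 0.925, and for Prdm1 1.10, 0.928 and 0.906. None of these genes passed in the fits with a block or an experiment term. Each interval spans 0 and leaves room for differences in either direction, so it does not show that the genotypes were alike. In hyper-IL-6 culture the spread was smaller, and Rora had an interval from -0.40 to 0.12 and Ahr from -0.34 to 0.18. Ikzf3 was lower in both deficient cultures (91.6 and 61.3 CPM against 115 and 107, -0.54 ± 0.19, adjusted p = 1), and Maf too (188 CPM in each library against 236 and 246, -0.36 ± 0.17, adjusted p = 1). Groups of 2 did not overlap for 3 of the 7 genes there and for 31.2% of all genes, and in naive cells for 2 of the 7 and 37.5% of all genes.

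In naive cells the genotype difference of Batf did not pass (16.4 and 19.8 CPM in deficient against 48.6 and 21 in wild-type cells, -0.93 ± 0.31, edgeR adjusted p = 0.378), and the size depended on which naive wild-type library was kept. Without library 1 it was -0.20 (adjusted p = 0.932). Without library 2 it was -1.42 (adjusted p = 0.00733), with 902 of all genes called in place of 1. The genotype by culture interaction was 1.34 ± 0.42 for Batf, -0.77 ± 0.22 for Ahr and -0.69 ± 0.27 for Ikzf3, with edgeR adjusted p between 0.556 and 0.563, and no gene of the culture experiment passed. DESeq2 called 51 there, and 1267 genes had an unadjusted p under 0.05. Before transfer all 7 genes had overlapping ranges, where 16.4% of all genes had not. The signs of Rora, Batf, Irf4, Ahr and Prdm1 in that comparison differed between the experiments, as with Rora at -0.40 in experiment 1 and 1.17 in experiment 2.

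**Figure D5:**
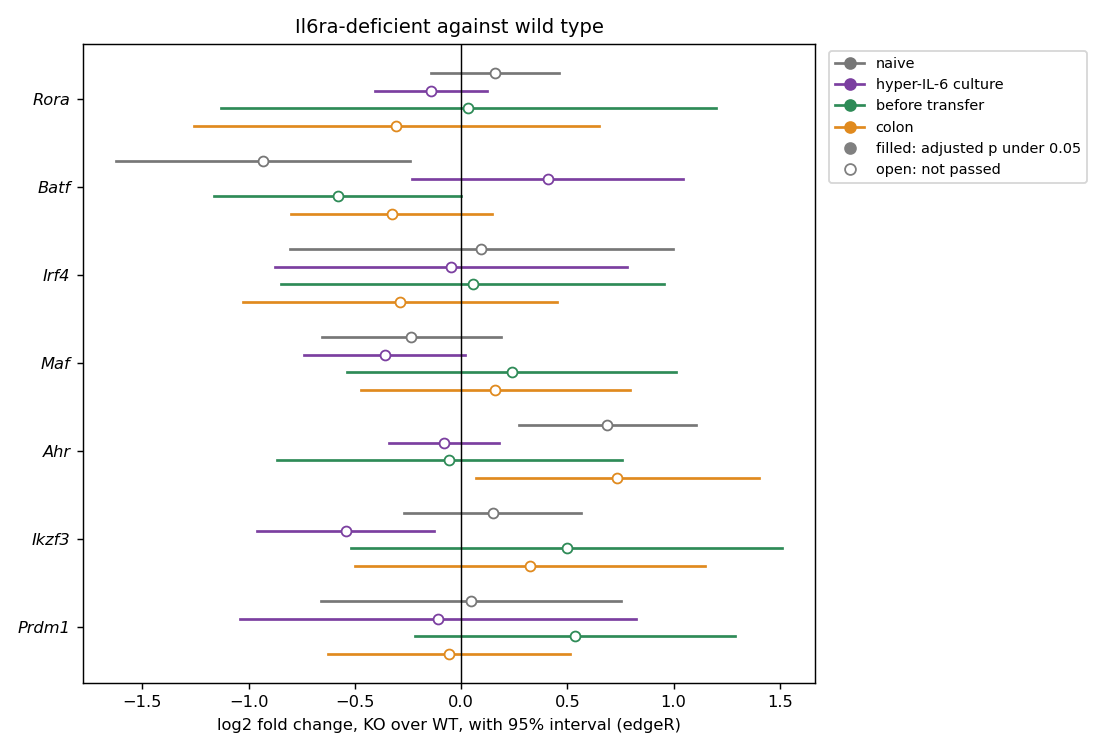
Log2 difference of Il6ra-deficient over wild-type cells with its 95% interval (edgeR) for each gene in naive cells, hyper-IL-6 culture, before transfer and in the colon; open points did not pass. All points are open, and Ahr in the colon lies at 0.74 with an interval from 0.07 to 1.40.

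The form of IL-6 made no difference that passed in wild-type cultures, where 0.0% of all genes tested passed, 226 had an unadjusted p under 0.05 and DESeq2 called 5. Cells given hyper-IL-6 and cells given IL-6 did not overlap for 4 of the 7 factor genes, against 26.8% of all genes, and differed by between -0.34 ± 0.29 (Batf) and 0.36 ± 0.19 (Ikzf3) on the log2 scale. The intervals were -0.36 to 0.17 for Rora, -0.38 to 0.14 for Ahr, -0.22 to 0.53 for Maf and -0.85 to 0.81 for Irf4. The doses differ, at 63 and 20 ng/ml, so this is a comparison of culture conditions as given.

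For each factor the genes with the most similar course were found by the lower of the Pearson correlations of log2 CPM over the 10 libraries of each part, among 8145 or 8146 genes. These libraries fall into groups, so the values describe group patterns. Uck2, a uridine kinase gene, was closest to Irf4 (0.992), followed by the collagen gene Col4a2 (0.984), which had no read in the naive libraries. With a prior count of 0.5 in place of 2, Dusp16 (0.983) took the place of Col4a2. Uck2 rose by 2.27 ± 0.09 with IL-6 culture and fell by 1.13 ± 0.21 and 1.37 ± 0.21 after transfer in wild-type and deficient cells. Gbp4, an interferon-induced GTPase gene, was closest to Prdm1 (0.991), followed by Nlrc5 (0.989), an activator of MHC class I genes. Gbp4 fell by 6.70 ± 0.38 with IL-6 culture and rose by 3.96 ± 0.25 and 3.98 ± 0.25 after transfer. Uck2 and Gbp4 were picked for their course over these same libraries, so these changes only describe that course and are not a separate result.

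The other factors had Pacsin2 (0.973) and Gramd1b (0.972) as the closest genes to Rora, Ccdc50 (0.971) and Clasp1 (0.965) to Maf, and Mtr (0.949) and Ldlrad4 (0.948) to Ikzf3. Dennd4a (0.933) and Mpzl3 (0.930) were closest to Ahr and Taf11 (0.926) and Anapc7 (0.908) to Batf.

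The genes lie apart in the genome (GRCm38, GENCODE M21): Rora on chromosome 9 from 68653786 to 69388246, Batf on chromosome 12 from 85686669 to 85709087, Irf4 on chromosome 13 from 30749226 to 30766976 and Maf on chromosome 8 from 115682942 to 115707794. Ahr is on chromosome 12 from 35497974 to 35535038, Ikzf3 on chromosome 11 from 98464902 to 98546031 and Prdm1 on chromosome 10 from 44437177 to 44528501. Counts cover all exons of a gene. Exons of Rora, Maf and Ahr share 82, 440 and 127 bases with genes on the opposite strand, and the sources used here do not give the strand setting of the counting.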

How the data were processed

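RNA of 20 libraries of sorted mouse CD4 T cells was sequenced. The authors deposited raw read counts per gene. The tools named were HTSeq 0.7.2, STAR 2.5.3, R 3.4.3, DESeq2 1.18.1 and SAMtools 0.1.18, with GRCm38, per the submitters' processing notes, and the sources used here do not give the strand setting. Each file listed 39179 gene identifiers, of which 37693 were named from GENCODE M21. The 5 summary lines were left out. Reads assigned to no gene made up 18.1% to 30.8% of the transfer and 21.1% to 31.9% of the culture libraries. No replicates agreed within sampling noise.

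The 7 genes and the gene lists were chosen with earlier results of these data known. Each part was fitted apart in R 4.3.3 with edgeR 4.0.16 (TMM, filterByExpr, quasi-likelihood test on the group, Benjamini-Hochberg adjustment, threshold 0.05), after the steps were tested on simulated data. Named list genes were up to 3 per list and comparison that passed, by size of the log2 change, with a mean log2 CPM of at least 2. Similar genes were the nearest 2 per factor with a mean log2 CPM of at least 3, by log2 CPM with a prior count of 2.

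Alternatives were DESeq2 size factors in edgeR, library size only, no filter, DESeq2 1.42.0, an experiment term, a block by replicate number, and leaving out libraries. Same-numbered libraries deviated together within a stage of the transfer part (r from 0.18 to 0.58 over 5 pairs) but not across stages (from -0.14 to 0.08). Differently numbered colon libraries of experiment 2 correlated as well (0.20 and 0.28), and the before-transfer pairs mirror 1 value, so a shared number and a shared experiment cannot be told apart. The block within a stage was added after seeing the data. In culture r was between -0.16 and 0.16, and libraries share only a number.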

Additional observations from a re-analysis of the deposited data

How the results depend on the processing

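The number of the 7 genes that passed in wild-type colon against before-transfer cells was 4 and became 2 with library size only, and 2 without wild-type before-transfer library 1 and colon library 2 together. In deficient cells it was 3 and became 2 with library size only (Ahr lost), 5 with no filter, 5 with DESeq2, 6 with the replicate block within stage, and 5 without those libraries. With no filter, 1 passed between naive genotypes, 1 between genotypes in hyper-IL-6 culture and 2 in the culture interaction. The replicate block across stages and the experiment term each gave 4 in deficient cells. Leaving out 1 library gave 2 to 5 in wild-type and 2 in deficient colon comparisons, 0 to 1 between genotypes before transfer and in the stage interaction (Rora, without wild-type before-transfer library 0), 0 to 2 between naive genotypes and 0 to 1 in the culture interaction (both without naive wild-type library 2), and 6 to 7 in wild-type hyper-IL-6 culture against naive. The cause was not tested.

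Over all genes, edgeR called 22 between colon genotypes, 120 with no filter, 133 with DESeq2, 39 with the replicate block, 94 with it within stage and 42 with an experiment term. Before transfer the count was 1, against 0 with library size only, 17 with no filter, 26 with DESeq2, 5 with the block within stage and 2 with the experiment term. Leaving out wild-type before-transfer library 0 gave 1152 there and 597 in the stage interaction (reported as 0), and leaving out 1 other before-transfer library gave 0 to 2. Between colon genotypes, leaving out 1 library gave 0 (wild-type library 1 or 2), 2 (any deficient library) or 8 (wild-type library 0). Leaving out naive wild-type library 2 gave 902 between naive genotypes. With no filter and with DESeq2 it was 13 and 13 for the stage interaction, 439 and 95 between naive genotypes, 36 and 5 between forms of IL-6, 74 and 3 between genotypes in culture, and 271 and 51 for the culture interaction, against 0 or 1 in the reported fits. Scaling by library size only moved the median of all genes to -0.16 and -0.15 in the colon comparisons and to 0.13, 0.13 and 0.14 in culture.

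The sign turned in these cases. Ahr between genotypes before transfer became 0.054 with the replicate block, 0.095 with it within stage and 0.046 with an experiment term. Without wild-type before-transfer library 1 and colon library 2, Prdm1 in the colon became 0.054, and before transfer Rora became -0.68, Irf4 -0.40, Maf -0.20 and Ikzf3 -0.075. In the same setting wild-type colon Batf became 0.0032 and Ahr -0.20, and the stage interaction became 0.52 for Rora, -0.10 for Batf, 0.23 for Irf4, 0.30 for Maf and 0.61 for Ikzf3.

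Leaving out 1 library, the log2 values before transfer ranged from -0.69 to 1.55 for Rora, -0.40 to 0.74 for Irf4, -0.21 to 0.90 for Maf, -0.084 to 1.49 for Ikzf3, -0.59 to 0.82 for Ahr and -0.026 to 0.96 for Prdm1. Between colon genotypes they ranged from -0.0068 to 0.29 for Maf and -0.23 to 0.056 for Prdm1. Against before-transfer cells they ranged from -0.32 to 0.24 for Batf in deficient cells, and in wild-type cells from -0.56 to 0.0099 for Batf, -0.97 to 0.13 for Maf and -0.21 to 1.20 for Ahr. The stage interaction ranged from -1.87 to 0.37 for Rora, -0.086 to 0.56 for Batf, -1.04 to 0.10 for Irf4, -0.75 to 0.36 for Maf, -0.10 to 1.32 for Ahr and -1.18 to 0.39 for Ikzf3. Between forms of IL-6 the range was -0.25 to 0.0024 for Ahr, -0.045 to 0.0044 for Irf4 and -0.015 to 0.81 for Prdm1. Between genotypes in culture it was -0.20 to 0.051 for Ahr, -0.19 to 0.072 for Irf4 and -0.36 to 0.18 for Prdm1, and between naive genotypes -0.57 to 0.19 for Maf, -0.035 to 0.36 for Ikzf3, -0.30 to 0.37 for Prdm1 and -0.52 to 1.03 for Irf4. The culture interaction ranged from -0.48 to 0.19 for Prdm1, -1.08 to 0.47 for Irf4 and -0.56 to 0.21 for Maf. Where 1 library was left in a group, it was assumed to vary like the others.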
